A study of Cucumis sativus with 8 samples.

Results

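Among 17783 cucumber genes, 100 were chosen because their levels in young fruits differed between R5, a *CsIVP*-RNAi line, and wild type (WT), while their mean levels in leaf veins did not. Of these, 31 were higher in R5 fruit and 69 were lower. Genes were required to reach a mean of at least 5 RPM (reads scaled to the library total) in R5 or WT fruit and 1 RPM in WT vein, which 14790 genes did. They also had to have an R5 vein mean at most 20% below or 25% above the WT vein mean, called the vein window here, which left 5326 genes. They were ranked by the gap between the fruit groups, which is the lower library of the higher group divided by the higher library of the lower group, and the first 100 were kept. A value of 0.5 RPM was added in each ratio. The fruit and vein values of R5 and WT therefore chose the genes, and their fruit differences are given as a description, with no test.

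RNA-seq was performed on R5 fruits and WT fruits taken 4 d before anthesis, and on R5 leaf veins and WT leaf veins, which were midveins cut from the youngest expanded leaves, with 2 replicate libraries in each of the 4 groups and 8 libraries in all. R5 carries an RNAi construct against the bHLH transcription factor gene *CsIVP*, named CsIND in the library labels, in a northern China type inbred cucumber line. It is 1 transgenic line, the mildest of those chosen by the authors, so line and construct cannot be told apart. Whether tissue of several plants was pooled is not given in the sources used here.

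Cucumber fruit grows from an inferior ovary, and at 4 d before anthesis it is an unfertilized ovary whose cells are still dividing. It is a sink organ, fed with sugars and amino compounds through its veins, and much of the nitrogen that reaches it is moved across membranes by peptide, nitrate and amino acid carriers. A leaf vein is a transport tissue of phloem, xylem and the surrounding parenchyma. bHLH factors bind the E-box and act in fruit, flower and vascular patterning in *Arabidopsis*. In whole organs, fewer cells of a type and less RNA per cell cannot be told apart.

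Between 18088985 and 22979345 reads were counted per library, and 1 read was worth 0.0435 to 0.0553 RPM. Replicate libraries had a Pearson r over genes of 0.984 in R5 fruit, 0.988 in WT fruit, 0.920 in R5 vein and 0.994 in WT vein, with genes not being independent. The R5 vein libraries stood apart, with 2653 of all genes more than 2-fold from each other, against 80 in WT vein. *CsIVP* (Csa6G483450) had 42.3 and 52.1 RPM in R5 fruit, against 49.98 and 38.3 RPM in WT fruit. No read of it was counted in vein, where 3 reads, the limit of a count of 0 for counting error only, are worth 0.145 to 0.166 RPM. The targeted gene was thus not lower in the libraries labelled R5 fruit, and every direction below rests on the labels. Of 8 vascular marker genes (*APL*, *SEOR1*, *PP2* and others), 3 were higher in both WT vein libraries than in both WT fruit libraries, and none was at 0 in any library. *APL*, the *SEOR1* gene Csa1G002870 and *PP2-A14* went the other way. Csa1G002870 had 20.8 and 19.4 RPM in WT fruit, against 5.58 and 5.59 RPM in WT vein. As a set, the 8 markers thus did not separate vein from fruit. Their fruit groups did not overlap in 2 markers higher and 1 lower in R5, with a summed level of 161 and 158 RPM in R5 fruit, against 175 and 141 RPM in WT fruit. In vein the groups lay apart in all 8, with 5 higher and 3 lower in R5. All 8 were taken from genes that the paper lists as differing between R5 and WT vein in these data. Their choice therefore fixed this count and its directions, and vein groups lay apart in 67.2% of all genes tested. The *SEOR1* gene Csa2G193340, which makes up most of the sum in WT, had 23.5 and 19.5 RPM in R5 vein, against 109 and 89.4 RPM in WT vein, and *APL* had 27.5 and 39.9 RPM in R5 vein, against 9.34 and 10.7 RPM in WT vein. Their summed level in vein was 147 and 135 RPM in R5, against 161 and 139 RPM in WT, and does not show these differences. The part of these markers in the members' differences was not tested.

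The largest gap was that of Csa6G024430. It had 4.95 and 6.21 RPM in R5 fruit, against 0.364 and 0.305 RPM in WT fruit, a log2 difference of 2.86 with 0.5 RPM added. With WT fruit this low the size depends on the value added, the log2 difference being 3.71 with 0.1 and 2.30 with 1. The R5 fruit values lay near those of vein, where the gene had 6.401 and 3.32 RPM in R5 vein, against 5.69 and 5.496 RPM in WT vein. WT fruit was therefore the 1 group of low values, with 7 to 8 reads in each library.

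The next increase was that of Csa3G829130, which is listed under proton-coupled oligopeptide transport, a term of the carriers that move peptides and, in several plant members of the family, nitrate or hormones. It had 5.06 and 13.2 RPM in R5 fruit, against 1.23 and 1.48 RPM in WT fruit. The R5 fruit libraries were 2.46-fold apart, and both were above WT. Csa1G103250, with no annotation in the sources used here, had 11.96 and 10.4 RPM in R5 fruit, against 4.64 and 4.05 RPM in WT fruit, a ratio of 2.41. Csa5G603370 reached 40.1 and 68.5 RPM in R5 fruit, against 19.03 and 19.6 RPM in WT fruit. In vein the same gene had 92.2 and 41.9 RPM in R5 vein, against 53.7 and 69.5 RPM in WT vein, so the R5 vein libraries lay on either side of both WT vein libraries. Csa3G829180, listed as a triglyceride lipase, an enzyme that releases fatty acids from storage lipid, had 74.6 and 83.00 RPM in R5 fruit, against 38.6 and 28.98 RPM in WT fruit, a ratio of 2.31.

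The other 5 of the first 10 increases were Csa2G416080, Csa2G034620, Csa6G384060, Csa4G045010 and Csa3G903550, none of them annotated in the sources used here. Csa2G034620 had 22.2 and 24.1 RPM in R5 fruit, against 13.2 and 11.1 RPM in WT fruit. In vein it had 16.98 and 15.7 RPM in R5, against 11.2 and 15.2 RPM in WT. Csa6G384060 had 23.6 and 35.1 RPM in R5 fruit, against 15.1 and 12.8 RPM in WT fruit. Its vein values were 14.2 and 19.5 RPM in R5, against 13.8 and 13.0 RPM in WT. Both genes were thus higher in both R5 libraries in vein as well, with mean vein ratios of 1.23 and 1.249. Csa4G045010 had 34.5 and 36.3 RPM in R5 fruit, against 22.3 and 20.9 RPM in WT fruit, and was a fruit gene in WT, with 2.65 and 3.13 RPM in WT vein. Csa3G903550 was the reverse, with 26.2 and 30.8 RPM in R5 fruit, against 17.1 and 14.3 RPM in WT fruit, and 137 and 129.5 RPM in WT vein. Increases in R5 fruit thus included genes with the higher WT level in fruit and genes with the higher WT level in vein.

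Among the decreases, the largest gap was that of Csa5G407060. It had 5.33 and 5.47 RPM in R5 fruit, against 17.2 and 17.4 RPM in WT fruit, and the WT mean was 3.01 times the R5 mean. Vein did not separate the genotypes, with 11.6 and 10.2 RPM in R5 vein, against 8.62 and 12.4 RPM in WT vein. The values of R5 fruit were below those of each of the other 6 libraries.

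The largest mean decrease among the next 4 was that of Csa3G078800, with 53.1 and 122 RPM in R5 fruit, against 410.0 and 325 RPM in WT fruit, a log2 difference of -2.06. In vein it had 679 and 484 RPM in R5 vein, against 705 and 745 RPM in WT vein, so that it was a vein gene in both genotypes. Both R5 vein libraries were below both WT vein libraries, the same direction as in fruit. Its mean vein ratio of 0.802 lay close to the lower end of the window. Csa7G046660 had 12.2 and 9.98 RPM in R5 fruit, against 39.01 and 32.7 RPM in WT fruit. Csa5G606680 is listed under uptake of allantoin, a nitrogen-rich compound made when purines are broken down. It is also listed under pyrimidine base transport and phosphoserine phosphatase. It had 2.72 and 4.23 RPM in R5 fruit, against 12.6 and 10.2 RPM in WT fruit, the WT mean being 2.99 times that of R5. Csa6G445050 had 10.01 and 9.75 RPM in R5 fruit, against 23.3 and 21.1 RPM in WT fruit, and its replicates were close in both groups.

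The remaining 5 of the first 10 decreases were Csa4G023020, Csa3G826680, Csa5G168900, Csa5G168950 and Csa7G004020. Csa4G023020 had 15.3 and 14.02 RPM in R5 fruit, against 35.6 and 29.3 RPM in WT fruit, and Csa3G826680 had 13.4 and 10.7 RPM in R5 fruit, against 24.8 and 26.5 RPM in WT fruit. Of the 5, Csa7G004020 showed the largest mean ratio and the widest replicates, with 0.326 and 2.39 RPM in R5 fruit, against 11.4 and 4.395 RPM in WT fruit. The lower R5 fruit value came from 6 reads, the fewest of any member in fruit, and its R5 vein libraries, at 0.290 and 1.74 times the WT vein mean, were further apart, the lower one from 3 reads.

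**Figure D1:**
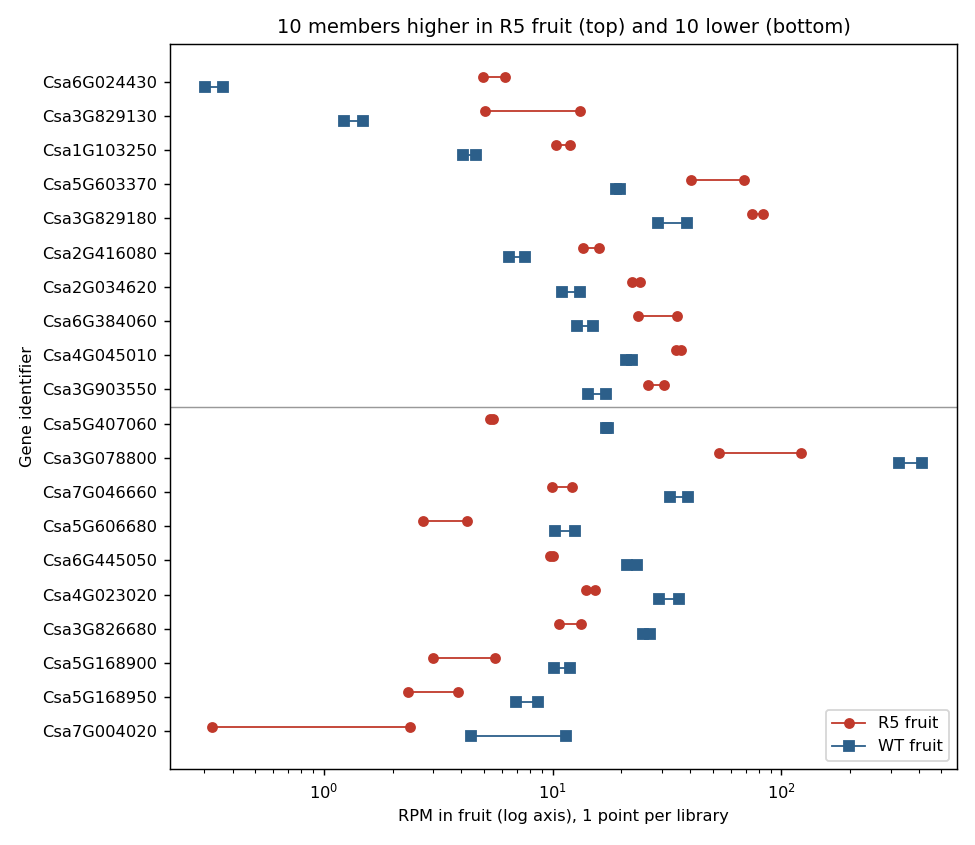
RPM in fruit (log axis) of the 10 members with the largest gap in each direction, 1 point per library, R5 fruit as circles and WT fruit as squares joined within a group. The groups of each gene do not overlap, which the choice of genes fixed, and the gap is widest for Csa6G024430, at 4.95 and 6.21 RPM in R5 fruit and 0.364 and 0.305 RPM in WT fruit.

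Behind these genes the differences were modest. Fruit means of the 31 higher genes ran from 5.58 to 816 RPM in R5, against 0.334 to 539.97 RPM in WT, and those of the 69 lower genes from 1.36 to 309.8 RPM in R5, against 5.06 to 434 RPM in WT. RPM is not scaled by gene length, so levels are compared only within a gene. The log2 difference of the means, R5 minus WT fruit, ran from 0.44 to 2.86 over the 31 higher genes, with a median of 0.74, and from -2.18 to -0.39 over the 69 lower genes, with a median of -0.70. The means differed by at least 2-fold in 10 of the higher and 19 of the lower genes. The gap itself was at least 2-fold in 9 genes, 1.5-fold to 2-fold in 21 and under 1.5-fold in 70. Fruit groups that do not overlap were also common outside the list. They were found in 2281 of the 5326 genes in the vein window (42.8%), 909 with R5 higher and 1372 with R5 lower, and in 46.6% of all genes tested. The 100 genes are thus the top of a long list, and nothing in the gap marks where it ends. The last 2 inside were Csa6G017060 (gap 1.274) and Csa6G538650 (1.273), and the first 2 outside were Csa1G162100 (1.271) and Csa4G495210 (1.2697). Csa6G538650 had 8.81 and 9.56 RPM in R5 fruit, against 13.3 and 12.3 RPM in WT fruit. Csa1G162100, just outside, had 11.5 and 15.7 RPM in R5 fruit, against 20.1 and 21.8 RPM in WT fruit. Csa4G495210 had 5.06 and 8.74 RPM in R5 fruit, against 11.5 and 11.2 RPM in WT fruit. The genes on either side of the end thus look alike.

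By the criteria used for the whole table (limma, adjusted p under 0.05 and at least 2-fold), 84 of 17778 genes were called in fruit (0.472%), 75 higher (0.422%) and 9 lower (0.0506%) in R5. Among the members, 2 were called, Csa6G024430 and Csa5G407060. Since the same libraries chose the members, nothing is read from this count. The other 98 lie apart in fruit without passing that test. edgeR's quasi-likelihood test on the recovered reads called the same 2, with 0.366% of its genes called in all. DESeq2 called 13, with 2.04% of its genes called in all. The limma calls in fruit rest on each fruit library, as leaving out any 1 of them left 0 members and 0 or 1 of all genes called. Leaving out either WT vein library, which enter the shared spread, also left 0 members, with 15 of all genes called. Leaving out either R5 vein library left 15 members, with 357 and 356 of all genes called.

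The label of these genes, changed in fruit and not in vein, was checked against each R5 vein library. Both R5 vein libraries lay inside the window around the WT vein mean in 30 of the 100 members, 10 of the higher and 20 of the lower genes. The same held for 46.6% of the 5326 genes in the window. In 26 members neither library did, against 10.4% of the window genes. For those 26, the R5 vein mean came close to WT because 1 library was high and the other low. By the distance between the replicates, the R5 vein libraries were over 2-fold apart in 26 members, 3 higher and 23 lower in R5 fruit, against 8.24% of the window genes. The fruit libraries were over 2-fold apart in 7 members in R5 and in 4 in WT, against 0.394% and 0.319% of the window genes, and the WT vein libraries in 1, against 0.0563%. For 70 of the members, then, the vein mean was inside the window while at least 1 of the R5 vein libraries was outside it. With the window set by R5 vein replicate 1 alone, without replicate 2, 55 of the 100 genes would have been chosen again, and without replicate 1 the number was 39, alternatives added after seeing the data.

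The extreme was Csa3G776970, listed as a carbonate dehydratase, the enzyme that interconverts CO2 and bicarbonate. It had 7.97 and 211 RPM in R5 vein, against 108 and 95.5 RPM in WT vein. Its R5 vein libraries were at 0.0828 and 2.07 times the WT vein mean, which together gave a mean ratio of 1.07. In fruit it had 5.82 and 12.6 RPM in R5 fruit, against 20.1 and 29.8 RPM in WT fruit, and the R5 fruit library numbered 1 was again the lower one.

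The same shape was seen in several others. Csa2G416080 had 5.32 and 42.2 RPM in R5 vein, against 25.3 and 28.97 RPM in WT vein. In fruit it was higher in R5, with 13.5 and 15.9 RPM in R5 fruit, against 6.46 and 7.62 RPM in WT fruit. Csa5G159100 had 4.88 and 24.7 RPM in R5 vein, against 14.98 and 13.5 RPM in WT vein, and 2.88 and 3.54 RPM in R5 fruit, against 5.33 and 6.09 RPM in WT fruit. Csa5G153010 showed 6.401 and 22.8 RPM in R5 vein, against 14.2 and 15.5 RPM in WT vein. Csa2G238860, with 9.93 and 30.5 RPM in R5 vein, against 23.1 and 21.8 RPM in WT vein, was lower in R5 fruit, at 1.903 and 3.26 RPM in R5 fruit, against 6.51 and 5.22 RPM in WT fruit. In these 4 genes R5 vein replicate 1 was below and replicate 2 above both WT vein libraries. They were chosen for naming after their values were seen.

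**Figure D2:**
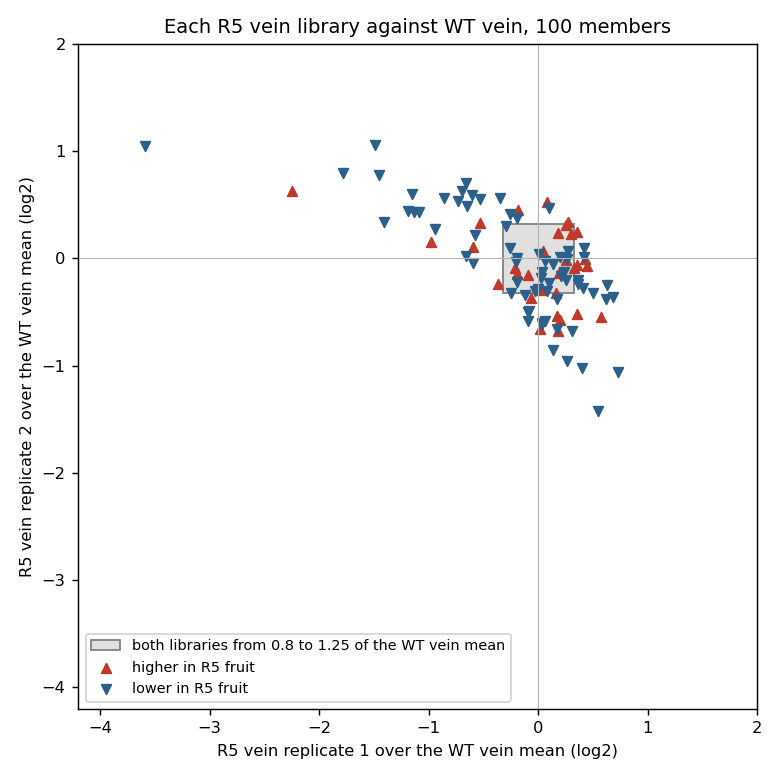
Level of each member in R5 vein replicate 1 (horizontal) and replicate 2 (vertical), each over the mean of WT vein, on log2 axes, with genes higher in R5 fruit as upward and lower ones as downward triangles. The shaded square holds the 30 members whose R5 vein libraries both lay at most 20% below or 25% above the WT vein mean. The points run from upper left to lower right because the rule fixed the mean of the 2 libraries.

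R5 vein replicate 1 was below both WT vein libraries and replicate 2 above them in 27 members, against 14.6% of the window genes. The opposite order held in 26 members, against 27.5%. Where the R5 vein libraries were over 2-fold apart, replicate 1 was the lower one in 19 members, and in 17 of these replicate 1 was also the lower of the R5 fruit libraries. Among the window genes it was 252 of 275. Replicate 2 was the lower one in the other 7 members, and in 4 of them it was also the lower in R5 fruit, against 106 of 164 among the window genes. In most of the 100 members replicate 1 was the lower R5 fruit library. The 17 of 19 members therefore do not by themselves show that vein and fruit go together. The log2 ratio of replicate 1 to replicate 2 in R5 vein had a Pearson r of 0.43 (Spearman's rho 0.37) with that in R5 fruit over the 100 members, and 0.40 (0.41) over the 5326 window genes. With WT fruit, r was 0.09 over the members and -0.13 over the window genes. Genes are not independent, and the points share their libraries. The labels say of the replicate numbers only that they count the samples of a group. What this order shares between vein and fruit was not tested.

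Other members stayed inside the window in each R5 vein library. Csa1G305720 had 4.18 and 4.27 RPM in R5 vein, against 4.15 and 4.15 RPM in WT vein, while in fruit it had 6.42 and 6.53 RPM in R5 fruit, against 9.06 and 8.57 RPM in WT fruit. Csa6G516820, listed under nucleoside transport, had 20.02 and 20.4 RPM in R5 vein, against 17.5 and 21.3 RPM in WT vein, and 33.99 and 36.1 RPM in R5 fruit, against 25.99 and 24.9 RPM in WT fruit. Csa5G590130 was at 4.88 and 5.11 RPM in R5 vein, against 4.31 and 4.19 RPM in WT vein. Its fruit values were 5.55 and 5.84 RPM in R5 fruit, against 3.91 and 2.96 RPM in WT fruit. Csa2G000630 showed a difference in a gene of mainly fruit, with 80.9 and 90.1 RPM in R5 fruit, against 129.6 and 131 RPM in WT fruit, and 11.4 and 9.85 RPM in R5 vein, against 11.8 and 10.7 RPM in WT vein. These 4 genes, also chosen after their values were seen, had both R5 vein libraries near WT. In Csa5G590130 and Csa1G305720 both R5 vein libraries were nonetheless above both WT vein libraries. For Csa5G590130 this was the direction of its fruit difference, and for Csa1G305720 the opposite one.

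The groups in vein did not overlap in 13 members, 8 with R5 higher and 5 with R5 lower, although the mean ratio was inside the window. The same was found in 29.7% of the window genes and 67.2% of all genes tested. limma called 0 members in vein, against 19.2% of all genes tested. The window chose genes with close vein means, so nothing is read from this count. Over all genes tested the median log2 difference in vein was 0.22 on the RPM scale and -0.02 with TMM factors, and in fruit it was -0.01 with either. The members' median in vein was close to 0 on the RPM scale and -0.24 with TMM, and with TMM 56 of the 100 stayed in the window. The window held the members' vein means near WT on the RPM scale, where the median of all genes was 0.22. Their lower position relative to all genes therefore follows from the window, and nothing is read from it. In fruit the scaling turned the direction of 0 members, and all 100 had groups that do not overlap under TMM.

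The members were spread over fruit and vein genes. In WT, 36 had a fruit mean at least 2-fold above the vein mean, against 15.7% of the window genes, and 16 had a vein mean at least 2-fold above the fruit mean, against 3.34%. The absolute log2 difference between WT fruit and WT vein had a median of 1.04 over the members and 0.54 over the window genes. limma called 34 members higher in WT fruit than in WT vein, against 22.7% of all genes tested and 15.5% of the window genes, and 12 higher in WT vein, against 7.45% and 2.57%. Of the 34, 26 were among the genes lower in R5 fruit. The WT fruit libraries also chose the members, and a gene lower in R5 fruit had to be high in them, so these counts are a description.

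The direction of the tissue difference differed between the higher and the lower genes. The 69 lower genes had a median log2 difference, WT fruit minus WT vein, of 0.89, and of 0.10 between R5 fruit and R5 vein. The 31 higher genes had a median of -0.16 in WT and 0.72 in R5. The rule kept R5 vein means near WT and chose genes by their fruit difference. The direction of both shifts from WT to R5 was therefore fixed by the choice of genes. The R5 fruit mean lay on the WT vein side of the WT fruit mean in 48 of the 69 lower genes and in 18 of the 31 higher genes. Of all window genes whose fruit groups do not overlap, this held for 81.9% of the lower and 34.5% of the higher ones. In 21 members the WT vein mean lay between the fruit means. The median WT difference of all window genes was 0.44.

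Single genes show this range. Csa1G423100 had the largest excess of WT fruit over WT vein in the list, a log2 difference of 4.08. It had 35.5 and 36.4 RPM in R5 fruit, against 47.5 and 96.6 RPM in WT fruit, and 3.93 and 3.66 RPM in WT vein. Csa6G454470 was also a fruit gene but higher in R5, with 50.95 and 43.9 RPM in R5 fruit, against 30.6 and 17.5 RPM in WT fruit, and 1.44 and 1.45 RPM in WT vein. Its WT fruit libraries were 1.73-fold apart. Of the lower genes, Csa7G447110 had the largest excess of WT vein over WT fruit (log2 difference -2.41), with 6.96 and 9.47 RPM in R5 fruit, against 12.9 and 13.9 RPM in WT fruit, and 76.6 and 70.2 RPM in WT vein. Its difference from vein was thus wider in R5 fruit than in WT.

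**Figure D3:**
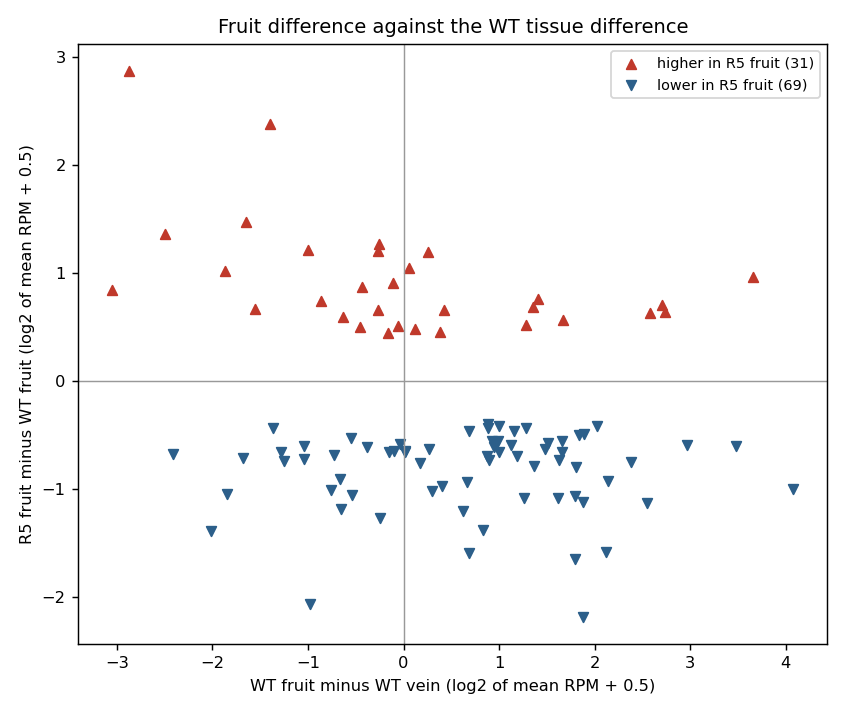
Difference between R5 and WT fruit (vertical) against that between WT fruit and WT vein (horizontal) for each member, both as log2 of the mean RPM + 0.5, with upward triangles for the 31 members higher and downward triangles for the 69 lower in R5 fruit. Lower members lie mostly right of 0, with a median of 0.89, while higher members lie on both sides, with a median of -0.16. WT fruit enters both axes, so the axes are not independent.

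None of the 100 identifiers has a gene name in the sources used here, but 18 are listed under 1 or more GO molecular functions, 9 among the higher and 9 among the lower genes. The lists at hand are shortened, so a gene outside them may have the function too, and no enrichment was tested. The 18 are described here by role.

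Transport was the most frequent term, with 4 higher and 2 lower genes. Besides Csa3G829130, Csa5G606680 and Csa6G516820, Csa3G733300 is listed under oligopeptide and histidine transport. It had 9.03 and 8.14 RPM in R5 fruit, against 6.19 and 6.18 RPM in WT fruit. Csa3G483760, listed under dicarboxylate and glutamate transport, had 72.00 and 88.9 RPM in R5 fruit, against 53.7 and 47.96 RPM in WT fruit. Csa1G324370, also of the oligopeptide transport term, went the other way, with 26.8 and 29.7 RPM in R5 fruit, against 40.9 and 46.8 RPM in WT fruit. The genes of this term therefore did not share a direction. In vein, Csa3G733300 had 7.11 and 5.58 RPM in R5 vein, against 6.91 and 7.04 RPM in WT vein.

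In amino acid and nucleotide metabolism, 3 further genes were listed. Csa4G563190, an anthranilate synthase, which starts the tryptophan branch from which plants also make auxin, had 133 and 146 RPM in R5 fruit, against 96.05 and 104 RPM in WT fruit. Csa3G149950, an asparagine synthase, which makes the amide that many plants use to carry nitrogen, had 61.8 and 62.99 RPM in R5 fruit, against 92.5 and 87.4 RPM in WT fruit. Its R5 vein libraries, at 104 and 195 RPM, lay on either side of both WT vein libraries, at 123 and 141 RPM. Csa1G152500, an IMP dehydrogenase, which directs purines to guanine nucleotides, had 4.51 and 10.02 RPM in R5 fruit, against 16.7 and 13.6 RPM in WT fruit. In R5 fruit its libraries were over 2-fold apart.

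Lipid and isoprenoid terms held 3 higher genes and 1 lower one, the peroxidase described last. Apart from the lipase Csa3G829180, Csa1G108800, listed as a fatty-acyl-CoA synthase and a monooxygenase, had 67.9 and 76.5 RPM in R5 fruit, against 49.6 and 52.5 RPM in WT fruit. Csa6G017060, a prenyltransferase of the kind that joins isoprenoid units into longer chains, had 147 and 166 RPM in R5 fruit, against 115 and 103 RPM in WT fruit. Each of the 3 higher genes had R5 vein replicate 1 above both WT vein libraries. Replicate 2 lay between the WT vein libraries in Csa3G829180 and Csa1G108800 and below both in Csa6G017060.

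The other listed genes had separate roles. Csa5G434550, a phosphorelay response regulator, the class through which cytokinin acts in plants, had 8.54 and 10.2 RPM in R5 fruit, against 6.28 and 5.14 RPM in WT fruit. Csa1G132060, listed under double-stranded RNA binding and protein phosphatase, had 45.8 and 45.8 RPM in R5 fruit, against 68.4 and 84.4 RPM in WT fruit. Csa4G050800, a ribonuclease P, which trims the leader from tRNA precursors, had 20.99 and 21.7 RPM in R5 fruit, against 27.8 and 28.6 RPM in WT fruit. These 3 differed in fruit by less than 2-fold in their means, with replicates closer than the gap between groups. Csa3G146380, a structural constituent of the cytoskeleton, had 303 and 317 RPM in R5 fruit, against 447 and 421 RPM in WT fruit. Csa1G024920, listed as a peroxidase and a prostaglandin-endoperoxide synthase, had 30.3 and 42.03 RPM in R5 fruit, against 57.7 and 55.9 RPM in WT fruit. In vein that peroxidase had 36.3 and 88.1 RPM in R5 vein, against 58.8 and 62.7 RPM in WT vein, so its R5 libraries again lay on either side of WT.

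The identifiers number the genes along each chromosome. By them, the members fell on chromosome 3 (22 genes), 5 (19), 6 (17), 1 (13), 7 (12), 2 (8) and 4 (8), with 1 on no chromosome. As a share of the window genes of a chromosome this was between 1.2% (chromosome 2) and 2.67% (chromosome 5). With members at most 20 measured genes apart counted as neighbours, a distance set after seeing the data, 27 members fell into 11 groups, and 9 of these groups, with 20 members, had 1 direction. How many groups this number of genes would form in any case was not tested.

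The clearest group was Csa5G623630, Csa5G623640 and Csa5G623650, whose identifiers follow each other in the table. Csa5G623630 had 5.44 and 6.85 RPM in R5 fruit, against 9.38 and 9.704 RPM in WT fruit. Csa5G623640 had 10.1 and 11.4 RPM in R5 fruit, against 21.3 and 15.5 RPM in WT fruit. Csa5G623650 had 63.95 and 93.3 RPM in R5 fruit, against 131 and 202 RPM in WT fruit. All 3 were lower in R5 fruit, and in R5 vein replicate 2 was above replicate 1 in each. The next member, 14 places on, was Csa5G623800, which was higher in R5 fruit, with 9.19 and 9.43 RPM in R5 fruit, against 6.83 and 5.87 RPM in WT fruit. Whether neighbouring genes share reads through similar sequence was not tested.

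On chromosome 3, Csa3G144170, Csa3G144190, Csa3G146320 and Csa3G146380 were all lower in R5 fruit. Csa3G144170 had 151 and 161 RPM in R5 fruit, against 280.4 and 263 RPM in WT fruit, and Csa3G144190 had 3.53 and 3.22 RPM in R5 fruit, against 6.28 and 4.92 RPM in WT fruit. The 19 other measured genes between the first and the last of the 4 showed no common direction. Their median log2 difference was 0.02, with 8 lower in mean, and their fruit groups did not overlap in 1 lower and 4 higher genes. Of these, Csa3G144210 had 49.3 and 32.6 RPM in R5 fruit, against 5.69 and 3.79 RPM in WT fruit. Beyond them, Csa3G149910 had 4.68 and 5.79 RPM in R5 fruit, against 9.38 and 8.05 RPM in WT fruit, and lies 4 places before the asparagine synthase gene Csa3G149950.

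Csa5G168900 had 2.99 and 5.61 RPM in R5 fruit, against 11.9 and 10.1 RPM in WT fruit, and Csa5G168950, 5 places on, had 2.34 and 3.86 RPM in R5 fruit, against 8.603 and 6.92 RPM in WT fruit. All 6 genes of this stretch had a lower mean in R5 fruit, but 2 of the 4 between were at or under 2 reads in each fruit library. Another of the 4, Csa5G168910, had 7.29 and 71.2 RPM in R5 fruit, against 82.03 and 28.7 RPM in WT fruit, and its groups overlapped. Csa3G829130 and Csa3G829180, the oligopeptide transport gene and the lipase, are also 5 places apart, and both were higher. Of the 4 genes between them, Csa3G829160 was higher too, at 13.8 and 10.1 RPM in R5 fruit, against 3.55 and 3.35 RPM in WT fruit, but its vein mean was also higher in R5, by 3.32 on the log2 scale, which kept it out of the vein window.

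**Figure D4:**
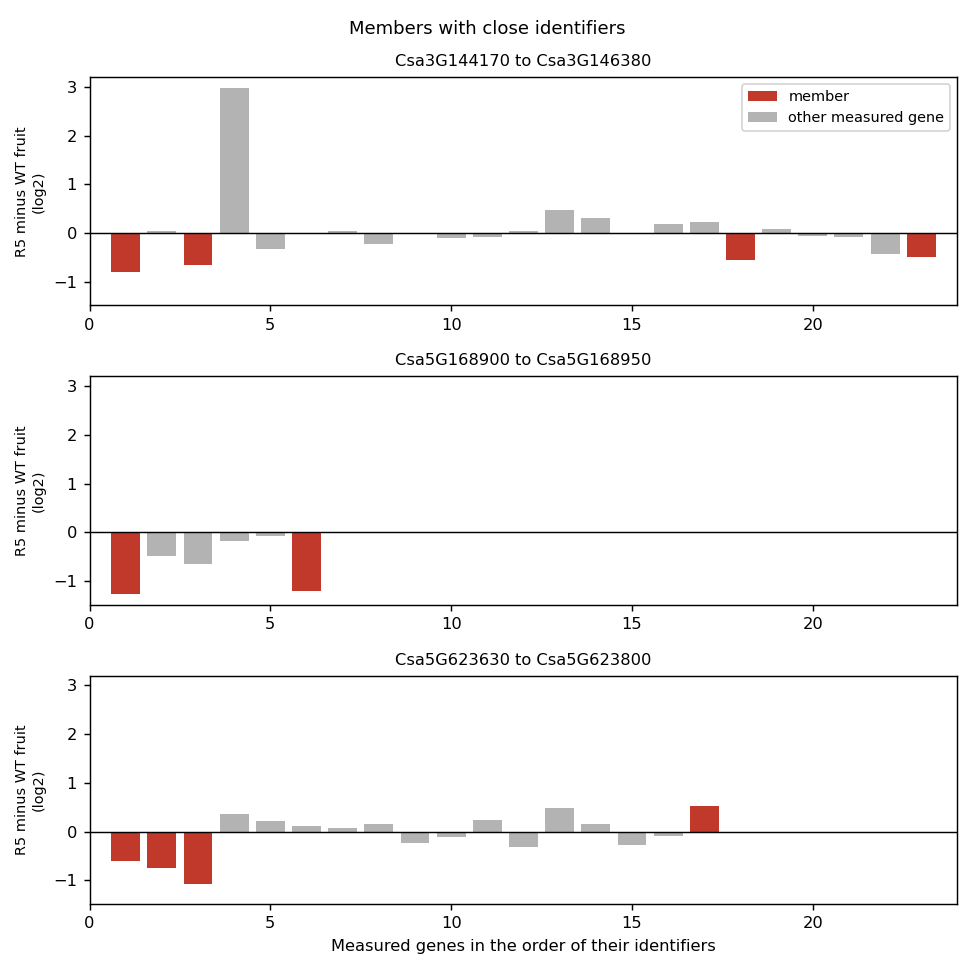
Difference between R5 and WT fruit, as log2 of the mean RPM + 0.5, for each measured gene of 3 stretches, placed in the order of the identifiers, with members in red and other genes in grey. In the stretch of Csa5G623630 the first 3 bars are members and point down, while the bar of Csa5G623800, at 0.52, points up. Between the members of chromosome 3 most grey bars stay near 0, apart from 1 gene at 2.98.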

How the data were processed

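Leaf veins and fruits of R5 and WT plants were sequenced with 2 replicate libraries per group. The authors made directional libraries, mapped reads to the cucumber genome (version 2i) with TopHat and counted them per gene with HTSeq. They deposited RPM values for 17783 genes. Tool versions are not given in the sources used here. All deposited RPM values (100%) were whole multiples of 1 read within 0.05 of a read, so that reads could be recovered for the count tests.

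From these, log2(RPM + 0.5) was fitted with limma 3.58.1 in R 4.3.3, in 1 two-sided fit over the 8 libraries with 4 group means, for 17778 genes, those reaching 1 RPM in 2 or more libraries. Genes were called at a Benjamini-Hochberg adjusted p under 0.05 and at least 2-fold. With 2 libraries a group, the smallest exact permutation p is 0.333. The script was checked on simulated data with 200 genes changed 4-fold in R5 fruit. It called 168 of them in fruit, and 9 genes that had not been changed. The simulation gave all groups the same spread per gene, so it does not cover the wider spread of R5 vein.

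The members and lists were chosen with earlier results of these data known. Members were named when among the 10 largest gaps per direction, next to the end of the list, or annotated. Others were named after their values were seen, as stated. 0 of 17783 identifiers matched a RefSeq table (Cucumber_9930_V3), so no names or sequences are given, and planned word lists applied to 0 members.

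Alternatives were a pseudocount of 0.1 or 1, TMM factors, edgeR 4.0.16, DESeq2 1.42.0, other windows and minimums, no filter, a replicate block and leaving out each library.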

Additional observations from a re-analysis of the deposited data

Results flagged for a closer look

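Vein groups did not overlap in 13 members, against 29.7% of the window genes. In 4 of the 13 the R5 and WT libraries lay apart in vein and in fruit in opposite directions. In the rest of the 13 the direction was the same in both tissues. The share of window genes with opposite directions was not counted. The difference between tissues was not tested, since both tissues chose the genes. As log2 differences, R5 minus WT, Csa1G231530 had 0.63 in fruit and -0.30 in vein, and Csa6G454470 had 0.97 in fruit and -0.21 in vein. Csa3G146320 had -0.56 in fruit and 0.27 in vein, and Csa1G305720 had -0.42 in fruit and 0.02 in vein. For Csa1G305720 the vein levels were near WT, at 4.18 and 4.27 RPM in R5 vein, against 4.15 and 4.15 RPM in WT vein. In Csa1G231530 the R5 vein libraries had 0.868 and 1.001 RPM and the WT vein libraries 1.33 and 1.21 RPM.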

How the results depend on the processing

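The list depends on its settings, and its balance depends on single libraries. Of the 100 members, 94 and 93 stayed with a pseudocount of 0.1 and 1, 78 with a fruit minimum of 1 RPM, and 92 with no value added in the vein ratio, a setting added after seeing the data. 53 stayed with TMM factors, 53 with a window of at most 10% below or 11% above WT, 64 with 0.67 to 1.5, 48 with a fruit minimum of 20 RPM, 62 with no filter, and 30 with the window required of each R5 vein library. Leaving out 1 library kept 39 to 83, the fewest being 39 when R5 vein replicate 1 was left out, 47 for R5 fruit replicate 2, 55 for R5 vein replicate 2, 59 for WT fruit replicate 1 and 64 for WT fruit replicate 2. Leaving out the R5 vein libraries for the window alone, added after seeing the data, gave the same 39 and 55. Genes lower in R5 fruit numbered 51 to 77 in every setting run.

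Fruit calls over all genes were 84, against 362 with DESeq2, 0 to 357 without 1 library (0 or 1 without a fruit library, 15 without a WT vein library, 357 and 356 without an R5 vein library) and 2 with a replicate block. Among the members 2 were called, against 13 with DESeq2, 0 with the replicate block and 0 to 15 without 1 library. Tissue calls were 5364 and ranged from 3901 to 5726, and those among the members were 46 and ranged from 33 to 52, including 48 with the replicate block. The replicate numbers share no batch in the labels, and same-numbered deviations correlated at 0.14 in fruit, -0.11 in vein, 0.22 in R5 and -0.02 in WT. Ranked by the smaller ratio of same-numbered libraries, the pairing kept 78 members. Over the 100 members, 52 of 700 values of the fruit difference moved by more than the spread between replicates and 13, of 11 members, by over 1.5 times, most widely for Csa7G004020 (-3.35 with R5 fruit replicate 2 left out, and -1.40 with WT fruit replicate 1 left out). That 0 reversed is no sign of stability, since the choice of genes fixed their direction. The fruit difference of *CsIVP* ranged from -0.083 (WT fruit replicate 2 left out) and -0.063 (R5 fruit replicate 2 left out) to 0.30. In vein, 20 members had under 50 reads in a library and in fruit 7, which limits their ratios.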
